A study of Homo sapiens with 9 samples.

Results

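Natural killer (NK) cells read the surface of a tumour cell through activating and inhibitory receptors, and the messenger RNAs of 8 ligands of those receptors were followed here in Hep3B cells, a human liver cancer line. The 8 genes were MICA, MICB, ULBP1, ULBP2, ULBP3, PVR, NECTIN2 and NCR3LG1, taken by their symbols from the 60683 genes of the count table. No threshold on their values was applied, but the set was chosen with earlier results of these data known. The 9 libraries formed 3 groups of 3. Cells received vehicle (DMSO) at 20% O2, vehicle at 1% O2, or the compound 32-134D at 1% O2, each for 24 h. The compound 32-134D is an inhibitor of the hypoxia-inducible factors, the transcription factors through which cells respond to low oxygen. The labels name no group that received 32-134D at 20% O2, so every statement on the compound holds for hypoxic cells only. The cells are a single line grown on plates without NK cells, and the labels describe the 3 libraries of a group as biological replicates.

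MICA, MICB and the ULBP proteins are ligands of NKG2D, an activating receptor of NK cells and cytotoxic T cells, and are known to appear on stressed, infected or transformed cells. PVR and NECTIN2 bind the activating receptor encoded by CD226. In competition with it, both bind the inhibitory receptor TIGIT, and PVR also binds CD96 and NECTIN2 also PVRIG. The same ligand can thus turn a response on or off. NCR3LG1 is the tumour cell ligand of the activating receptor NKp30. All of these act as proteins at the cell surface, where shedding and trafficking also set their amount, and only their RNA was measured here.

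Levels are given as CPM, the counts of a gene relative to the depth of its library, after scaling between libraries by the trimmed mean of M values (TMM). A gene was called changed when its false discovery rate (FDR) from the edgeR quasi-likelihood test, adjusted over 22672 tested genes, was below 0.05 and its fold change was above 1.5. Total counts ran from 6013980 to 40549699 per library, and the library with the lowest total was vehicle at 20% O2, replicate 2, where 3 counts equal 0.471 CPM. Within the 32-134D group, replicate 3 stood apart from replicates 1 and 2. The chi-square per degree of freedom over all genes was 36.4 and 32.5 against them, whereas it was 2.0 between replicates 1 and 2. In both vehicle groups replicate 1 stood apart, by less. Its values were 6.21 and 12 at 20% O2, against 1.62 between replicates 2 and 3. At 1% O2 they were 7.9 and 11.8, against 2.48. The fold changes of the ligands with the compound are therefore also given without 32-134D replicate 3, and so are the calls of other genes that change without it. Since RNA was taken from whole cultures, fewer cells expressing a gene and less RNA per cell cannot be told apart.

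The ligands fell into 3 kinds by their response. MICA, MICB, ULBP1 and PVR were all higher at 1% O2 than at 20% O2 and all lower with 32-134D than with vehicle at 1% O2. NECTIN2 lay on the other side, lower at 1% O2 in every library but by less than the fold threshold. NCR3LG1 was not called in hypoxia and was called higher with the compound, a call that was lost without either of 2 libraries. ULBP2 and ULBP3 had at most 18 counts in any library.

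**Figure D1:**
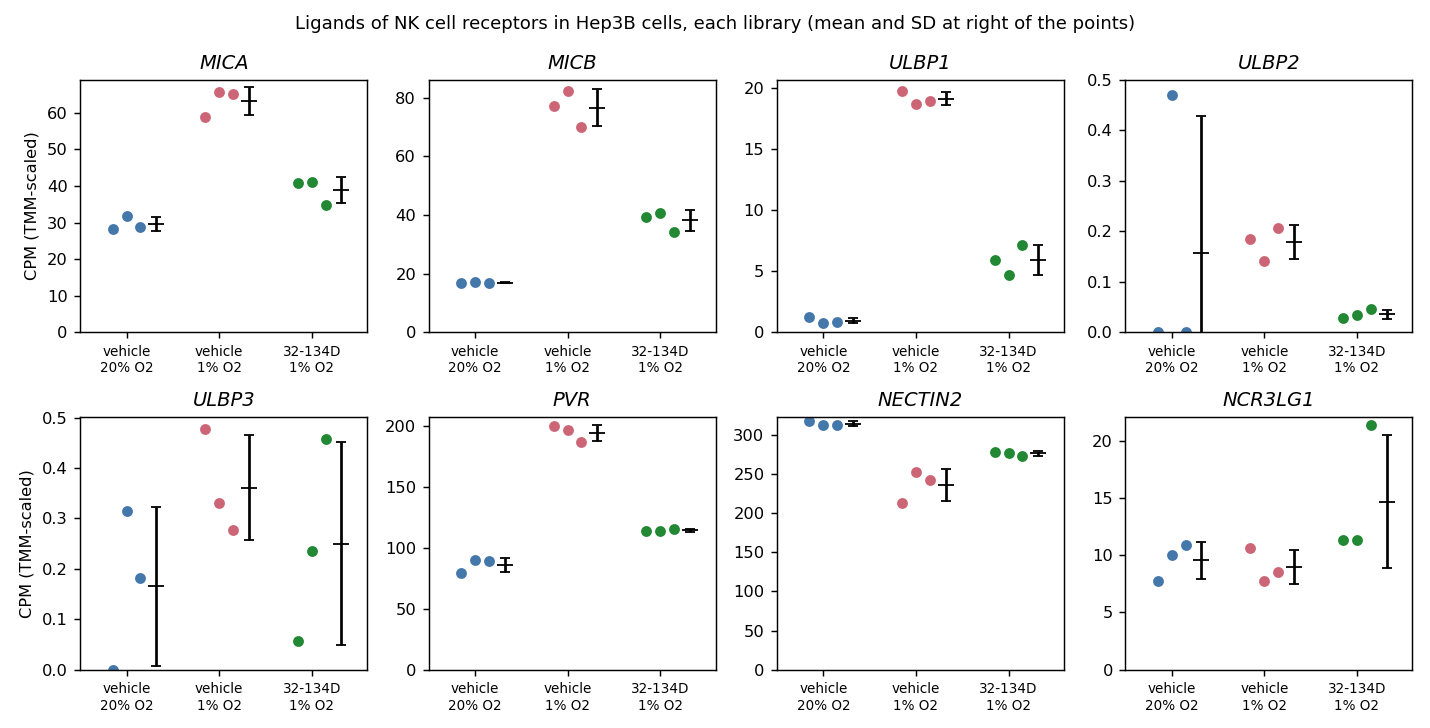
TMM-scaled CPM (vertical axes, each from 0) of the 8 ligands in each of the 9 libraries, with points for libraries in the order replicate 1, 2 and 3 and with the mean and SD to the right of each group; the lower SD bar of ULBP2 at 20% O2 is cut at 0. For MICA, MICB, ULBP1 and PVR all 3 points of vehicle at 1% O2 lie above all points of the other groups, NECTIN2 is lowest there, and NCR3LG1 has 1 high point, at 21.4 CPM, in the 32-134D group.

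MICA and MICB are neighbouring genes of the major histocompatibility complex. In the GRCh38 annotation (GENCODE 29) MICA (ENSG00000204520) lies on chromosome 6 from 31399784 to 31415315 and MICB (ENSG00000204516) from 31494881 to 31511124, both on the plus strand and both protein coding. Their promoters resemble each other, and the RefSeq sequence before each start (GRCh38.p14) is shown for them and for ULBP1, the ligand that rose most, because heat shock and hypoxia elements are known from genes that respond to these stresses. Capitals mark a heat shock element core (GAANNTTC) and a hypoxia response element core (ACGTG or GCGTG, read as CACGC on the other strand). None of these bases lies in an annotated exon of its gene, and the MICA and MICB stretches fall within the annotated extent of the genes because longer transcripts start upstream. MICA is shown at chr6:31403420-31403520, from 175 to 75 bases before the start, MICB at chr6:31497966-31498066, from 179 to 79 bases before the start, and ULBP1 at chr6:149963790-149963913, from 153 to 30 bases before the start, all on the plus strand.
MICA: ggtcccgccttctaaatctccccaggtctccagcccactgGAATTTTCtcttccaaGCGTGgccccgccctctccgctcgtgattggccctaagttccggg
MICB: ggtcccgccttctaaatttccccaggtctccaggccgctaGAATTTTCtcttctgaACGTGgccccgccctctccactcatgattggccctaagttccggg
ULBP1: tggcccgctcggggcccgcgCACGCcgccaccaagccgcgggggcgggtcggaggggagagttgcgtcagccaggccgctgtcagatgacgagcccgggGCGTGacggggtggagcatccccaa

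The MICA and MICB stretches were identical at 92 of 101 bases (91.1%). In both, the hypoxia core began 16 bases after the start of the heat shock core, although its first base differed, so that MICA held GCGTG and MICB ACGTG. Over windows of 300 bases, from 250 bases before the start to 50 after it, GAANNTTC was found on either strand in MICA and MICB and in none of the other 6 ligands, against 6.77% of 35116 RefSeq promoters. GCGTG was found in MICA, MICB, ULBP1, ULBP2, NECTIN2 and NCR3LG1, and ACGTG in MICB and ULBP3, whereas 36.5% and 21.4% of all promoters held them. The core of the composite element bound by ATF4, TGATGNAA, was present in ULBP2 only, 20 bases after the start, and in 3.62% of all promoters. PVR held none of the 4 motifs, and no match overlapped another. A match is a run of letters and was not tested for binding. Other spellings of these elements were not searched, so a promoter without a match may still hold one.

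The first comparison asked what hypoxia did to the ligands in vehicle-treated cells. Of the 8, 4 were called higher and 0 lower, where 19.5% of all tested genes were called higher and 20.3% lower. At an unadjusted p below 0.05, 1 ligand, NECTIN2, was lower, and DESeq2 called 4 higher and 0 lower. The median log2 fold change of the 8 was 1.23, and over all tested genes it was 0.000997. This median, like those of the other comparisons, includes the imprecise values of ULBP2 and ULBP3, with at most 18 counts in any library.

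MICB rose more than its neighbour. It measured 16.7, 17.1 and 16.8 CPM in the 3 libraries at 20% O2 and 77.3, 82.5 and 70.0 CPM at 1% O2. Every hypoxic library was therefore more than 4 times as high as every normoxic one, and the log2 fold change was 2.18 (SE 0.10, FDR = 2.01e-10). MICA measured 28.1, 31.7 and 28.8 CPM at 20% O2 and 58.7, 65.7 and 65.1 CPM at 1% O2, with a log2 fold change of 1.10 (SE 0.09, FDR = 9.82e-08). The groups did not overlap for either gene, nor did they for some genes that were not called, such as BAG6 and HLA-E. In CPM, which is not corrected for gene length, MICA was the higher of both at 20% O2 and MICB at 1% O2.

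ULBP1 (ENSG00000111981, chromosome 6, 149964007 to 149973710, plus strand), a ligand held in the membrane by a lipid anchor, went from near the limit of detection to a clear signal. The counts at 20% O2 were 17, 5 and 29, or 1.22, 0.785 and 0.882 CPM. At 1% O2 they were 743, 396 and 546, or 19.7, 18.7 and 18.9 CPM. The change was 19.65-fold, with a log2 fold change of 4.30 (SE 0.20, FDR = 3.64e-10), the largest among the called ligands. RAET1K shared 3.16% of the 75-base windows of ULBP1, so a small part of its reads could belong elsewhere.

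PVR (ENSG00000073008, chromosome 19, 44643798 to 44663583, plus strand) and NECTIN2 (ENSG00000130202, chromosome 19, 44846175 to 44889228, plus strand) encode related adhesion molecules, and they went in opposite directions. PVR measured 79.4, 89.7 and 88.9 CPM at 20% O2 and 199.9, 196.4 and 187.0 CPM at 1% O2, a log2 fold change of 1.18 (SE 0.07, FDR = 3.77e-09). NECTIN2 measured 317.5, 312.8 and 313.1 CPM at 20% O2 and 213.5, 252.7 and 242.6 CPM at 1% O2. Its 3 hypoxic libraries all lay below the normoxic ones, with a log2 fold change of -0.41 (SE 0.07, FDR = 0.000172), a 1.33-fold difference that did not reach the fold threshold. With total library size and with upper quartile scaling it was -0.63 and -0.61 and NECTIN2 was called lower.

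NCR3LG1 (ENSG00000188211, chromosome 11, 17351726 to 17377341, plus strand) measured 7.74, 10.1 and 10.9 CPM at 20% O2 and 10.7, 7.73 and 8.50 CPM at 1% O2. These ranges overlapped almost entirely, and the log2 fold change of -0.09 (SE 0.23, FDR = 0.771) was well within the replicate spread. ULBP3 (ENSG00000131019, chromosome 6, 150063150 to 150069095, minus strand) had 0, 2 and 6 counts at 20% O2 and 18, 7 and 8 at 1% O2 (FDR = 0.181). ULBP2 (ENSG00000131015, chromosome 6, 149942000 to 149949235, plus strand) had 0, 3 and 0 counts at 20% O2 and 7, 3 and 6 at 1% O2 (FDR = 0.316). Both of its groups were near the floor of 3 counts per library, so no fold change is given, and its FDR was 0.0078 without vehicle at 20% O2, replicate 2, which held all 3 normoxic counts. RAET1L shared 18.6% of the 75-base windows of ULBP2, and RAET1K 9.41% of those of ULBP3.

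**Figure D2:**
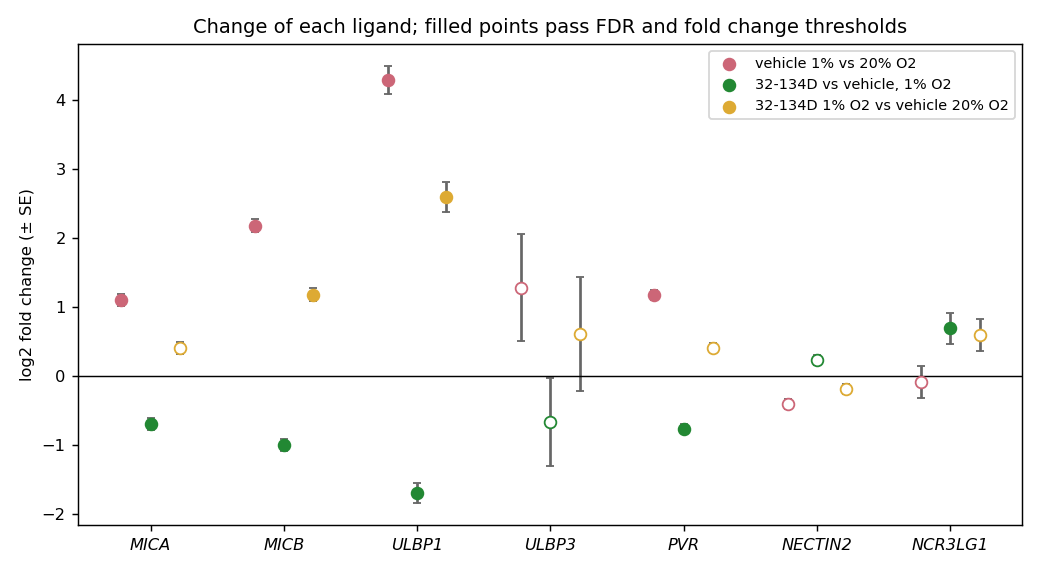
Log2 fold change (vertical axis, ± SE) of 7 ligands in 3 comparisons, with filled points for genes past both thresholds; ULBP2 is left out because its counts were at the floor. MICA, MICB, ULBP1 and PVR have filled points above 0 for hypoxia and below 0 for 32-134D, whereas NECTIN2 has open points of the opposite signs, at -0.41 and 0.23.

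The second comparison asked how 32-134D changed the ligands in hypoxic cells. MICA, MICB, ULBP1 and PVR, the same 4 genes that rose in hypoxia, were called lower, and 1 ligand, NCR3LG1, was called higher, where 13.7% of all tested genes were called lower and 16.2% higher. The authors reported that the compound inhibited most hypoxia-induced genes, so this reversal is not particular to the ligands. The median log2 fold change of the 8 was -0.73 against -0.01 over all tested genes. Both comparisons use the vehicle libraries at 1% O2, so a ligand high in those libraries by chance would rise in the first and fall in the second. The level of those libraries does not enter the comparison of 32-134D at 1% O2 with vehicle at 20% O2, which is given after this one.

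MICB measured 39.5, 40.9 and 34.2 CPM with 32-134D, all below the lowest hypoxic vehicle library at 70.0 CPM, and its log2 fold change was -1.0 (SE 0.09, FDR = 3.75e-07). MICA measured 40.8, 41.0 and 34.8 CPM, against a lowest vehicle value of 58.7 CPM, with a log2 fold change of -0.70 (SE 0.09, FDR = 1.12e-05). ULBP1 measured 5.90, 4.68 and 7.18 CPM, from 208, 139 and 157 counts, with a log2 fold change of -1.70 (SE 0.15, FDR = 3.54e-07). The treated ULBP1 libraries all lay below the lowest hypoxic vehicle one, at 18.7 CPM. Such a gap was not particular to called genes, since BAG6 and HLA-E, which were not called, also had one. PVR measured 113.5, 113.8 and 115.8 CPM, above all normoxic and below all hypoxic vehicle libraries, and its log2 fold change was -0.77 (SE 0.07, FDR = 5.21e-07).

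Without replicate 3 of the 32-134D group, the log2 fold changes were -0.62 for MICA, -0.93 for MICB, -1.84 for ULBP1 and -0.77 for PVR, and all 4 were still called. MICA and PVR were near the fold threshold. With total library size the values were -0.51 and -0.58, and neither was called, and with upper quartile scaling MICA had -0.58 and was not called. These scalings moved the median of all genes to 0.17 and 0.11. A change of scaling shifts all genes by nearly the same amount, so the distance to the median cannot decide whether these calls hold.

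NECTIN2 measured 278.2, 277.2 and 273.2 CPM with the compound, above all hypoxic vehicle libraries and below all normoxic ones. The log2 fold change was 0.23 (SE 0.07, FDR = 0.0169), under the fold threshold. NCR3LG1 measured 11.3, 11.3 and 21.4 CPM, so that replicate 3 had nearly double the level of the others, and the fitted log2 fold change of 0.69 (SE 0.22, FDR = 0.0179) passed both thresholds. Without that replicate it was 0.32 (FDR = 0.0419), under the fold threshold, and without vehicle at 1% O2, replicate 2, it was 0.60 (FDR = 0.0735). ULBP2 had 1 count in each treated library (FDR = 0.0956) and ULBP3 had 2, 7 and 10 (FDR = 0.419).

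The third comparison set hypoxic cells with 32-134D against normoxic cells with vehicle, to see how far the ligands stood from their level at 20% O2. MICB and ULBP1 were called higher and 0 ligands lower, where 3.0% of all tested genes were called higher and 0.516% lower. At an unadjusted p below 0.05, 1 ligand, NECTIN2, was lower, and DESeq2 called 3 higher and 0 lower, NCR3LG1 being the added one. The median log2 fold change of the 8 was 0.51 against -0.00282 over all tested genes.

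ULBP1 stayed 6.06-fold higher than at 20% O2 (log2 fold change 2.599, SE 0.21, FDR = 2.42e-06), and its lowest treated library, at 4.68 CPM, lay well above the highest normoxic one, at 1.22 CPM. MICB stayed 2.27-fold higher (log2 fold change 1.18, SE 0.10, FDR = 2.23e-06), with no overlap. MICA and PVR came closer to the normoxic level, both with a log2 fold change of 0.41 (SE 0.09 and 0.07, FDR = 0.0109 and 0.00172), which passed the FDR but not the fold threshold. Their treated libraries were all above the normoxic ones. Such a gap was not particular to genes that passed the FDR, since BAG6, ICAM1 and PCNA also had one (FDR = 0.137, 0.129 and 0.0909). The share of all genes with such a gap was not computed. NECTIN2 had a log2 fold change of -0.19 (FDR = 0.119) and NCR3LG1 of 0.60 (FDR = 0.121). Without replicate 3 of the 32-134D group the values were 2.46 for ULBP1, 1.25 for MICB, 0.48 for MICA, 0.40 for PVR, -0.18 for NECTIN2 and 0.23 for NCR3LG1.

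A ratio of counts of a pair of genes within a library does not depend on how libraries are scaled. The ratios of PVR to NECTIN2 and of MICB to MICA were chosen after the values had been seen. At 20% O2 the ratio of PVR to NECTIN2 was 0.250, 0.287 and 0.284, at 1% O2 it was 0.936, 0.777 and 0.771, and with 32-134D it was 0.408, 0.410 and 0.424. NECTIN2 counts thus exceeded PVR counts in all 9 libraries, and the counts came closest to each other in vehicle at 1% O2. The mean ratio was 3.02-fold higher at 1% than at 20% O2 and 1.99-fold lower with the compound than with vehicle at 1% O2. The mean with the compound was 1.52-fold that at 20% O2. Without replicate 3 of the 32-134D group the fold of the ratio was 0.496 against vehicle at 1% O2 and 1.50 against 20% O2.

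The ratio of MICB to MICA was 0.594, 0.540 and 0.585 at 20% O2, 1.32, 1.26 and 1.07 at 1% O2, and 0.967, 0.998 and 0.982 with 32-134D. In counts, the ratio was thus below 1 in normoxia, above 1 in hypoxia and near 1 with the compound. Exon length is 2386 bases for MICA and 2798 for MICB, so a ratio of 1 is not an equal level per length. The mean ratio was 2.12-fold higher in hypoxia, 1.23-fold lower with the compound than with vehicle, and 1.72-fold higher with the compound than in normoxia. The folds against these groups without replicate 3 of the 32-134D group were 0.811 and 1.72. No groups overlapped for either ratio. The exact permutation test (two-sided) gave p = 0.1 for each of the 6 comparisons, the smallest p that 3 against 3 libraries allow, so none can reach 0.05.

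**Figure D3:**
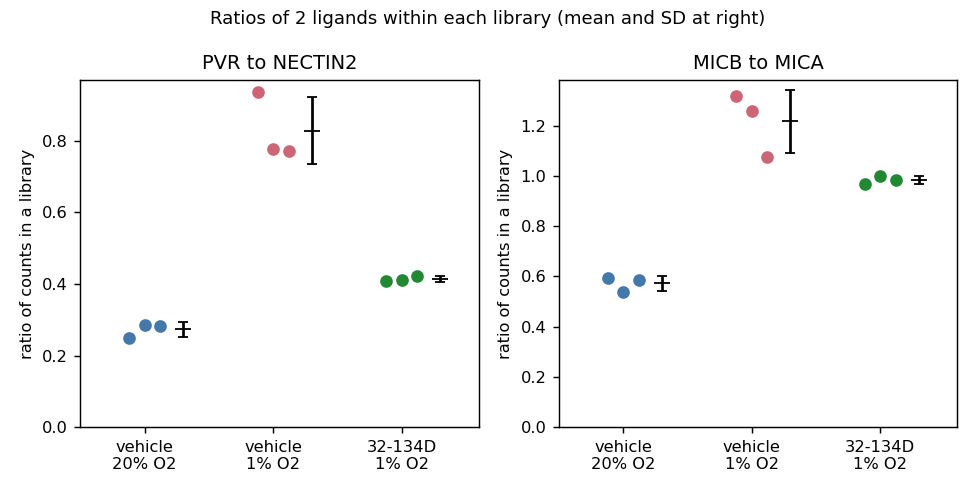
Ratio of counts (vertical axes, from 0) of PVR to NECTIN2 and of MICB to MICA within each of the 9 libraries, with the mean and SD to the right of each group. PVR to NECTIN2 has means of 0.274, 0.828 and 0.414 and MICB to MICA of 0.573, 1.22 and 0.982 in vehicle at 20% O2, vehicle at 1% O2 and 32-134D at 1% O2.

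To compare levels between genes, CPM was divided by exon length in kilobases to give RPKM, a level per length. At 20% O2 the order was NECTIN2 with 83.9 RPKM, PVR 24.4, MICA 12.4, MICB 6.04, NCR3LG1 1.48, ULBP1 0.306, ULBP3 0.168 and ULBP2 0.116. Adjacent genes did not overlap between libraries down to ULBP1, and ULBP1, ULBP3 and ULBP2 did. The ligands that bind the CD226 receptor were thus the most abundant and the ULBP genes the least.

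At 1% O2 NECTIN2 (57.0 to 67.4 RPKM over libraries) and PVR (53.1 to 56.8) came to lie next to each other with a narrow gap. MICB and MICA followed at 27.4 and 26.5 RPKM, and their ranges overlapped. ULBP1, at 6.07 RPKM, had moved above NCR3LG1, at 1.39, and ULBP3 and ULBP2 remained last at 0.366 and 0.132. In percentiles among 22265 genes with a length, ULBP1 went from 29.5 to 69.5 and MICB from 71.2 to 90.9. With 32-134D the order was NECTIN2 73.7, PVR 32.5, MICA 16.3, MICB 13.7, NCR3LG1 2.28, ULBP1 1.89, ULBP3 0.253 and ULBP2 0.0266 RPKM. The ranges of MICA and MICB met at 14.6 RPKM and those of NCR3LG1 and ULBP1 overlapped, and ULBP1 stood at percentile 53.1.

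**Figure D4:**
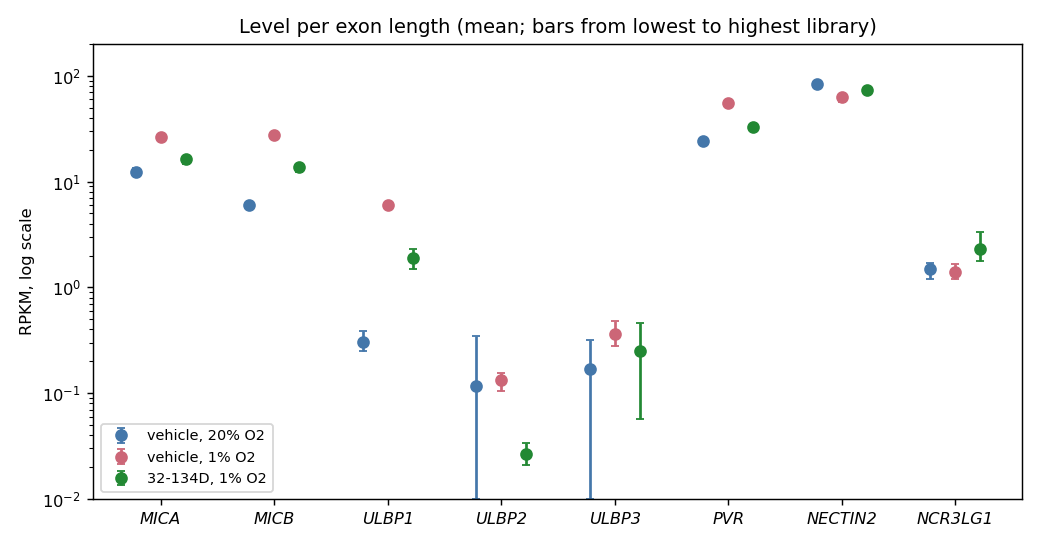
Mean RPKM of the 8 ligands on a log axis in the 3 groups, with bars from the lowest to the highest of 3 libraries; a bar that reaches the lower edge belongs to a gene with a library at 0. NECTIN2 and PVR are farthest apart at 20% O2 (83.9 and 24.4 RPKM) and ULBP1 crosses NCR3LG1 at 1% O2 (6.07 and 1.39 RPKM).

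Other genes of NK cell recognition were taken from 7 lists with 41 genes, of which 33 had enough counts to be tested. In hypoxia 8 were called higher and 6 lower, beside 19.5% and 20.3% of all tested genes. With 32-134D at 1% O2, 7 were called higher and 4 lower, beside 16.2% and 13.7%. In treated hypoxic against normoxic cells 2 were higher and 0 lower, beside 3.0% and 0.516%. The counts were thus near the background in the first and second of these. For the last, 2 were lower at an unadjusted p below 0.05 (NECTIN1 and PDGFD) and DESeq2 called 0 lower. The 8 higher in hypoxia fell to 3 with total library size, 4 with upper quartile scaling and 5 without vehicle at 20% O2, replicate 3. The 6 lower in hypoxia became 8 with total library size. The 2 higher against normoxia, ATF4 and TNFRSF10A, became 1 without vehicle at 20% O2, replicate 2 or 3, or without 32-134D replicate 3, and 3 without 32-134D replicate 1 or 2.

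The other NKG2D ligands, RAET1E, RAET1G and RAET1L, were at or near 0. RAET1E and RAET1L had 0 counts in all 9 libraries and RAET1G had 4 in all. CLEC2B, the ligand of NKp80, and CD48 also had 0 counts in every library. Of the NKG2D ligands, then, MICA, MICB and, in hypoxia, ULBP1 made up nearly all counts.

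Among nectins, NECTIN1 went the way of NECTIN2 rather than PVR. Its log2 fold change was -1.27 in hypoxia (SE 0.16, FDR = 8.20e-06) and 0.91 with the compound (SE 0.16, FDR = 0.000213), although treated replicate 3, at 24.5 CPM, was lower than the others at 40.3 and 41.6 CPM. NECTIN3 was not called in either comparison. NECTIN4 had at most 4 counts in any library. PDGFD, a growth factor that binds the NK receptor NKp44, had -1.70 in hypoxia and 1.21 with the compound (FDR = 8.38e-07 and 3.04e-05). BAG6, another ligand of NKp30, had 0.50 and -0.32 and ICAM1, a ligand of the integrin LFA-1, 0.30 and -0.14, all under the fold threshold, and CD58, the ligand of CD2, had 0.23 and 0.19 (FDR = 0.451 and 0.523).

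Ligands of inhibitory receptors did not move as one. Of 10, 3 were called higher and 1 lower in hypoxia, where 19.5% and 20.3% of all tested genes were, and 2 higher and 2 lower with the compound, where 16.2% and 13.7% were. The class I histocompatibility genes HLA-B and HLA-C, read by killer cell immunoglobulin-like receptors, had log2 fold changes of 0.79 and 0.59 in hypoxia and of -0.80 and -0.67 with the compound. HLA-G had 0.59 (FDR = 0.0282) in hypoxia and -0.39 with the compound (FDR = 0.108). HLA-C and HLA-G lost the hypoxia call under all 3 other scalings tried and in 4 of the 6 fits each that left out 1 library (HLA-C without any library at 20% O2 or without vehicle at 1% O2, replicate 2, and HLA-G without vehicle at 20% O2, replicate 2 or 3, or vehicle at 1% O2, replicate 1 or 3), HLA-B under total library size, and HLA-C the call with the compound under total library size and upper quartile scaling. These genes resemble one another and vary between people, so that read assignment among them is uncertain.

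CLEC2D, the ligand of the receptor encoded by KLRB1, had -1.71 in hypoxia and 1.43 with the compound (FDR = 4.92e-06 and 2.95e-05) at 1.13 to 4.41 CPM over all libraries. CEACAM1, which binds itself on NK cells, had -0.50 in hypoxia (FDR = 0.109) and 0.97 with the compound (FDR = 0.00446). Its treated libraries measured 57.5, 56.4 and 136.7 CPM, and without replicate 3 the log2 fold change was 0.43 (FDR = 4.13e-05), under the fold threshold, so the call rested on that library. HLA-E had 0.44 in hypoxia and -0.40 with the compound (FDR = 0.000122 and 0.000347). PCNA had 0.55 and -0.33 (FDR = 2.63e-05 and 0.00264) and CDH1 -0.46 and 0.29 (FDR = 0.000509 and 0.0151). These 3 genes passed the FDR but not the fold threshold. With other scalings CDH1 and CEACAM1 were called lower in hypoxia, at -0.671 and -0.716 with total library size and -0.651 and -0.695 with upper quartile scaling. LGALS9, with at most 17 counts in a library, was not called in either comparison. It was called higher with the compound (FDR = 0.0421) without vehicle at 1% O2, replicate 2.

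Of 5 genes linked to ligand shedding, ADAM10, a protease known to cleave MICA and MICB from the cell surface, was the only one called. Of all tested genes, 20.3% were called lower in hypoxia and 16.2% higher with the compound, so 1 of 5 was near the background. Its log2 fold change was -0.61 in hypoxia (SE 0.07, FDR = 1.54e-06) and 0.67 with the compound (SE 0.07, FDR = 1.16e-06), the reverse of its substrates. Its mean level was 198.1, 129.5 and 205.4 CPM in vehicle at 20% O2, vehicle at 1% O2 and 32-134D at 1% O2. Its relative ADAM17 had 0.51 in hypoxia, under the fold threshold, and -0.10 with the compound (FDR = 0.376).

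Among death receptors, TNFRSF10A, a receptor for the TRAIL ligand that NK cells carry, had 0.97 in hypoxia (FDR = 0.000188) and -0.26 with the compound (FDR = 0.182), and it was 1.63-fold higher in treated hypoxic than in normoxic cells (FDR = 0.0168). That last call was lost without 32-134D replicate 3 (1.45-fold) and without vehicle at 20% O2, replicate 2 (FDR = 0.0632) or replicate 3 (FDR = 0.114). TNFRSF10B had 0.54 in hypoxia (FDR = 0.00869), just under the fold threshold, and FAS had 0 counts in every library.

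Of 9 factors known from other work to act on NKG2D ligand expression, 4 were called higher in hypoxia and 2 lower, beside 19.5% and 20.3% of all tested genes. ATF4, a stress-response factor known to drive ULBP1, went from 226.8 to 992.3 CPM on average (log2 fold change 2.13, SE 0.08, FDR = 4.09e-11). With 32-134D it fell to 435.8 CPM (log2 fold change -1.19, FDR = 2.42e-08), which was still 1.92-fold its level at 20% O2 (FDR = 2.42e-06). HSF1, the heat shock factor, had 0.78 in hypoxia and, under the fold threshold, -0.52 with the compound. E2F1 had 0.65 and -0.51, and both HSF1 and E2F1 lost the hypoxia call with total library size and upper quartile scaling, E2F1 also without vehicle at 20% O2, replicate 3.

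The DNA damage pathway, which can raise NKG2D ligands through its kinases, split. CHEK1 had 1.32 in hypoxia and -0.76 with the compound, and the latter call was lost with total library size. The upstream kinases ATM and ATR had -0.94 and -0.78 in hypoxia and 1.02 and 0.73 with the compound, called under every scaling tried. RBM4 and SP1 were not called.

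**Figure D5:**
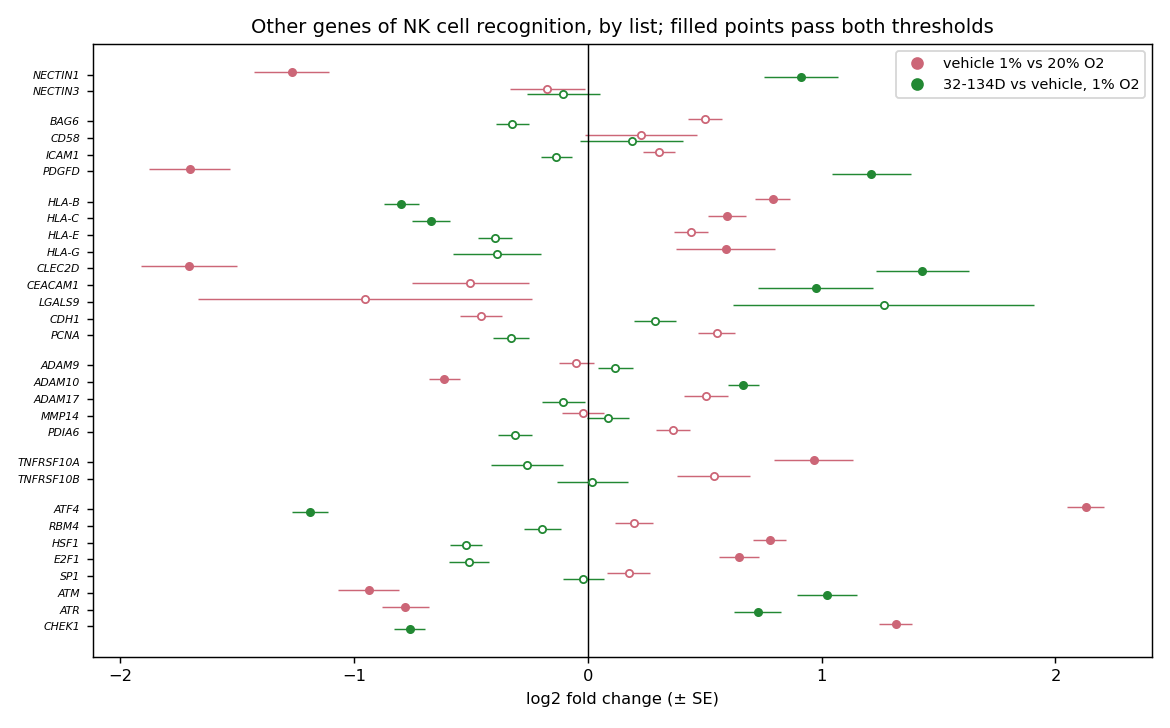
Log2 fold change (horizontal axis, ± SE) of other genes of NK cell recognition, grouped by list from top to bottom as nectins, other activating or adhesion ligands, inhibitory ligands, shedding, death receptors and regulators, with filled points past both thresholds; NECTIN4 is left out because 1 group had no counts, and the genes not reported here are left out too. ATF4 is farthest to the right in hypoxia at 2.13, and CLEC2D and PDGFD are farthest to the left at -1.71 and -1.70.

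For each of the 6 ligands with at least 1 CPM on average, the 3 genes whose log2 CPM followed it most closely over the 9 libraries were listed, among 11509 genes and by Pearson r. All points share the same libraries, depths and scaling, and with 3 groups many genes reach a high r, so these are descriptions. MICB was followed by RYBP (r = 0.997), a Polycomb protein, with IER5 and DEDD2 next, and RYBP had nearly the same sizes of change, at 2.21 in hypoxia and -1.02 with the compound. MICA was followed by RTN4R (r = 0.996), DAGLB and GMEB1. ULBP1 was followed by SUZ12 (r = 0.997), another Polycomb protein, ODC1 and GPAT3, but SUZ12 changed far less, by 0.61 and -0.27 on the log2 scale.

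PVR was followed by TAF8 (r = 0.999), SNX9 and ZNF337, and SNX9 had changes of 1.27 and -0.79 beside 1.18 and -0.77 for PVR. NECTIN2 was followed by RBPMS (r = 0.987), IDH3G and KISS1R. NCR3LG1 was followed by MAPKAPK5 (r = 0.986), MRAS and PDCD11.

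Markers were summed to check the cells. Of 8 liver line genes, each had counts, and their sum was 17300 to 18700 CPM at 20% O2, 12000 to 14900 at 1% O2 and 11500 to 17200 with 32-134D. In that order of groups, the mean of APOB was 4486.7, 405.5 and 3520 CPM and that of ALB 9284.3, 9536.2 and 8115.7 CPM. In hypoxia 2 of the 8, APOB and AFP, were called lower and 6 were not called, where 20.3% of all tested genes were called lower. Of 12 NK cell genes, 9, 5 and 7 were at 0 in all libraries of vehicle at 20% O2, vehicle at 1% O2 and 32-134D. NKG7, PRF1 and GZMB were at 0 throughout, and the sum was at most 1.64 CPM, most of it CD226, which had log2 fold changes of -1.69 in hypoxia (FDR = 0.00131) and 1.60 with 32-134D (FDR = 0.00152). Fibroblast genes summed to at most 10.8 CPM and endothelial genes to at most 1.28 CPM. The sums of the NK cell, fibroblast and endothelial lists were lowest at 1% O2 with vehicle, where MICA, MICB, ULBP1 and PVR were highest. Mitochondrial genes took 3.83 to 3.99% of counts at 20% O2, 4.25 to 4.58% at 1% O2 and 4.0 to 4.42% with 32-134D. The part of these markers in the results was not tested.

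Overlapping genes were few in counts. HCP5 overlaps exons of MICA by 62 bases and had 184 counts in all against 10452 for MICA. CEACAM19 overlaps PVR by 121 bases and had 599 counts against 31634, and the antisense gene AC011481.2 overlaps NECTIN2 by 128 bases and had 14 against 61167. The 75-base windows of MICA, MICB and NCR3LG1 occurred in no other annotated gene.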

How the data were processed

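Total RNA of 9 Hep3B cultures (3 groups of 3) was sequenced on an Illumina instrument. The authors checked reads with FastQC and MultiQC, trimmed them with Bbduk, aligned them to GRCh38 with STAR and counted reads per gene (Ensembl release 100) with featureCounts; the deposited values are raw counts, with no normalization. Versions, strand setting and treatment of multiply mapped reads are not given in the sources used here. Without strand, reads of antisense partners cannot be told apart.

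From these counts, edgeR 4.0.16 in R 4.3.3 was run on all 9 libraries with TMM scaling, group means, genes with at least 10 counts in all (22672 genes) and the quasi-likelihood test, with Benjamini-Hochberg adjustment; the common biological coefficient of variation was 10.5%. Positions and lengths came from GENCODE 29, promoters from RefSeq. The ligands were all named; other genes were named from fixed lists when called or needed, and like genes by the highest r among genes with a mean count of at least 100. The ligands and lists were chosen with earlier results of these data known. The script was tested on simulated data with 200 changed genes, raised or lowered in equal number. For the hypoxia comparison (22151 genes) it recovered 96% of 2-fold and 100% of 4-fold changes, and 6.67% of calls were false. With the compound these values were 93%, 100% and 7.21%, and against normoxia 91%, 100% and 5.45%. Far fewer genes changed there than were called in hypoxia, so the choice of scaling was not tested. In the lists, 2 genes are counted but not reported here. Alternatives included DESeq2 1.42.0, other scalings, filters and thresholds, thinning and leaving out each library. P-values measure the spread between the 3 cultures of a group in 1 experiment. Over all tested genes, the replicate numbers showed no pairing of the libraries.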

Additional observations from a re-analysis of the deposited data

How the results depend on the processing

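Each count and fold change was recomputed under 17 alternatives, or fewer where a gene dropped out. The count of ligands higher in hypoxia stayed between 3 and 5. The count lower in hypoxia became 1 (NECTIN2) with total library size, with upper quartile scaling and with no fold threshold. With 32-134D at 1% O2, the count lower became 2 with total library size and with a fold threshold of 2, and the count higher became 0 after thinning to the smallest library and with a fold threshold of 2, became 2 with no fold threshold, and was 0 to 1 when 1 library was left out. Against normoxia, the count higher became 1 when 10 counts were required in every library, since ULBP1 then dropped out with ULBP2 and ULBP3, and 4 with no fold threshold. Of the recomputed single ligand fold changes, 373 kept their direction and side of the thresholds, 9 lost the call, 10 gained it and 3 changed sign, none of them a called gene. With 1 library left out, NCR3LG1 in hypoxia ran from -0.277 to 0.0435 (the latter without vehicle at 20% O2, replicate 3), ULBP2 against normoxia from -2.07 to 3.12 (without vehicle at 20% O2, replicate 2), and ULBP3 against normoxia from -0.0844 (without 32-134D replicate 3) to 1.16. The cause was not tested. ULBP2 with the compound had FDR = 0.0213 when fitted on the 2 groups alone. Total library size and upper quartile scaling moved the median of all genes in hypoxia to -0.21 and -0.19 and the share of calls that were higher from 49.0% to 34.5% and 35.7%; with the compound that share went from 54.2% to 72.0% and 66.1%. Among all tested genes the count lower against normoxia ran from 21 to 553. Same-numbered libraries deviated from their group means with correlations of -0.0322 to 0.00525 over all tested genes. No pairing was seen there, but a pairing limited to some genes or hidden by the noise of low counts was not excluded. With a replicate block 4 ligands were higher in hypoxia, 1 higher and 4 lower with the compound and 2 higher against normoxia, as without it. The ratios of counts kept their direction in all 42 alternatives, which were chosen after seeing the data, as was leaving out each library for the single other genes. With at most 18 counts in any library, the fold changes of ULBP2 and ULBP3 were imprecise.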
